A study of Homo sapiens with 6 samples.

Results

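Interferon-stimulated genes (ISGs) were followed one by one in HCT116 cells, a human colorectal carcinoma line, after overexpression of the RNA-binding protein RBM47. A list of 54 ISGs was matched by symbol to the count table of 28491 genes, and the 47 whose 6 counts averaged at least 10 were kept. The 3 RBM47-OE libraries came from cells transfected with a plasmid carrying RBM47, and the 3 NC libraries from cells transfected with a control plasmid. All cells were transfected with Lipofectamine 2000 and collected 48 h later, and poly(A) RNA was sequenced. No interferon treatment is named for either group, so the levels in NC were those of transfected cells without a named interferon treatment. No untransfected sample is among the 6, so whether transfection itself changed ISG levels was not tested. The labels name a pcDNA3.1-3xFlag-RBM47 plasmid, DMEM and a NEBNext directional kit, whereas the study's methods name pIRES-hrGFP-1a, a KC stranded kit and McCoy's 5A as the medium. Transfection was transient, and fewer cells that expressed a gene and less RNA per cell could not be told apart in these bulk samples. Nothing states that the replicates came from separate cultures, so p-values measured the spread between these 6 samples, which may be technical.

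The libraries held 26792409 to 35477983 counts on genes. RBM47, the transfected gene, was at 19.1, 23.1 and 19.2 CPM (counts scaled to library size, after TMM) in NC replicates 1, 2 and 3 and at 1267, 1201 and 1202 CPM in RBM47-OE replicates 1, 2 and 3. The plasmid and the cells' own gene both give reads on RBM47. The epithelial markers EPCAM, CDH1, KRT8, KRT18, KRT19 and CDX2 averaged from 543 to 120279 counts per library, while CDX1 and CEACAM5 averaged 0.50 and 0.17 counts and VIL1 12.7. Of the immune markers with a row, CD3E and CD14 averaged 0.33 and 6.0 counts and CD68 17.3 counts, and CD68 was called lower in RBM47-OE (log2 fold change -1.10, called under 5 of the 16 alternatives that gave a value). EPCAM was called higher at 0.26, and KRT8 and KRT18 lower at -0.27 and -0.36, and their part in the results was not tested. Of the fibroblast and endothelial markers with a row, COL1A1 averaged 478.7 counts, VWF 39.5, PDGFRB 13.7 and PECAM1 3.83, and the 3 of these that were tested were not called.

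Interferons bind receptors that signal through the kinases JAK1 and TYK2, and transcription factors that include STAT2 and IRF9 then join into the complex ISGF3. This complex binds the interferon-stimulated response element (ISRE) in the promoters of ISGs. Their products sense viral RNA, degrade it or block its translation, restrict viral entry at membranes, or attach the ubiquitin-like protein ISG15 to other proteins, and many ISGs keep a low basal level in epithelial cells without added interferon.

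The ISRE core was searched as GAAANNGAAA on either strand (TTTCNNTTTC where it reads on the other strand) in RefSeq promoter windows of GRCh38.p14, each from 250 bases before to 50 bases after a transcription start. Windows were found for 39 of the 47 genes, and none was matched for OASL, IFIT2, IFITM2, LY6E, IRF7, PML, USP18 and PARP10. At least 1 ISRE core stood in 26 of the 39 genes (66.7%), against 4.38% of 27305 genes with a window. Promoters of ISGs that fell and of ISGs that rose are shown side by side because both groups carried the element. The capitals mark the ISRE cores, and overlapping cores run together.
ISG15 (chr1:1013247-1013546, plus strand): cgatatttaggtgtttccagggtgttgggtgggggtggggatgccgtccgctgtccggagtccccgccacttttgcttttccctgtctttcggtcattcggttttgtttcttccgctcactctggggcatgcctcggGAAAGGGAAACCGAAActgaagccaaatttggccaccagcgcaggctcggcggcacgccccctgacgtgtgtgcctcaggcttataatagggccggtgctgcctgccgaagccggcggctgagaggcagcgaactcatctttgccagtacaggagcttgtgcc
IFI6 (chr1:27672143-27672442, minus strand): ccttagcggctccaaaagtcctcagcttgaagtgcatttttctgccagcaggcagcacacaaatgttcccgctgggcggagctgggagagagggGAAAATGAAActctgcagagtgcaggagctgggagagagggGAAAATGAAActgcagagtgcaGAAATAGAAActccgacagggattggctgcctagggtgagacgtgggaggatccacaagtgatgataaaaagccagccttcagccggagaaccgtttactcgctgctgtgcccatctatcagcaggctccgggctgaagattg
OAS3 (chr12:112938224-112938523, plus strand): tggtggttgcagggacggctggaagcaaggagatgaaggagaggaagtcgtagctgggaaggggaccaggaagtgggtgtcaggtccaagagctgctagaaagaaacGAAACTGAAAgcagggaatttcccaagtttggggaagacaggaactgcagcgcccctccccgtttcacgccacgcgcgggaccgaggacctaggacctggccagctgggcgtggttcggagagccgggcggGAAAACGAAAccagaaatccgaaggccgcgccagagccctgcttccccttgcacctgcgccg
IFIT5 (chr10:89414318-89414617, plus strand): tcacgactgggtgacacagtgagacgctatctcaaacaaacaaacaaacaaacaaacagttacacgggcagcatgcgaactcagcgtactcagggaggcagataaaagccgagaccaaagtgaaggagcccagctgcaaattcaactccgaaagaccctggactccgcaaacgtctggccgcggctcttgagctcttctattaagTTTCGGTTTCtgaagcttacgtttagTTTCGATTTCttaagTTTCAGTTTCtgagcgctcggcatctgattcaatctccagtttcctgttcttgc
PARP14 (chr3:122680589-122680888, plus strand): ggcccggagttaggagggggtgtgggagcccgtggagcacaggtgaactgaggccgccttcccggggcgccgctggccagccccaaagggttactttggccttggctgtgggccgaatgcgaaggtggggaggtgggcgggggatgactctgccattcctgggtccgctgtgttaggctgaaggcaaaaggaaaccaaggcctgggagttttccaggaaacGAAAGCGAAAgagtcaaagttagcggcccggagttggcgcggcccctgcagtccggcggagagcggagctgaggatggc

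ISG15, IFI6 and OAS3, which were lower in RBM47-OE, had 2, 3 and 2 ISRE cores. IFIT5 and PARP14, which were higher, had 3 and 1. The element was present in 7 of 10 genes with a window among those called lower (70.0%), in 2 of 3 called higher (66.7%) and in 17 of 26 not called (65.4%). DDX58, the remaining ISG called higher, had none in its window. The interferon gamma-activated site (GAS), searched as TTCNNNGAA on both strands, was in 16 of 51 windows of these genes (31.4%) and in 7.66% of all 35116 windows. A match describes the letters of the window and is not a measured site.

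At an adjusted p under 0.05 in edgeR's quasi-likelihood test, 16 of the 47 ISGs were lower in RBM47-OE (34.0%), where 16.9% of the 16260 genes tested were lower. Another 3 were higher (6.38%), where 19.1% of all genes were higher. The other 28 did not pass. DESeq2 on the same genes made these calls too, except that OAS1 did not pass. Log2 fold changes were below 0 for 32 ISGs and above 0 for 15, with a median of -0.18, beside 0.00 over all genes, of which 8129 were below 0. The lower genes were OAS1, OAS3, OASL, IFITM2, IFITM3, LY6E, IFI6, IFI27, IFI35, IRF7, PML, ISG15, USP18, TRIM21, TRIM25 and PARP12. The higher genes were DDX58, IFIT5 and PARP14. Within the IFIT, IFITM and PARP families some genes passed the test and others did not.

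At the thresholds of the study, an unadjusted p under 0.01 and a fold change over 1.5, 4 ISGs were lower: IFI6, IFI27, ISG15 and OASL. Of all genes tested, 0.873% were lower at these thresholds. The study itself named IFI6 and IFI27 from the same libraries. It also reported that antiviral defense and immune terms were enriched among its lower genes. All ISG values here come from those libraries, so neither these 4 genes nor the ISG counts are independent evidence. No ISG was higher at these thresholds in edgeR (0 of 47, where 1.51% of all genes were higher) or in DESeq2 (0 with the same filter, 0 on the whole table), and 6 were higher at an unadjusted p under 0.05 in edgeR. Without RBM47-OE replicate 1, 1 ISG was higher at these thresholds.

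All 3 RBM47-OE libraries lay below all 3 NC libraries for 16 ISGs, where this held for 23.4% of all genes, and above them for 4 ISGs, where it held for 23.2%. These 16 were not quite the called genes, since ZC3HAV1 was separated but not called, and OAS1 was called although its groups overlapped. The 4 genes with all RBM47-OE libraries above were DDX58, DDX60, RNF213 and PARP14.

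**Figure D1:**
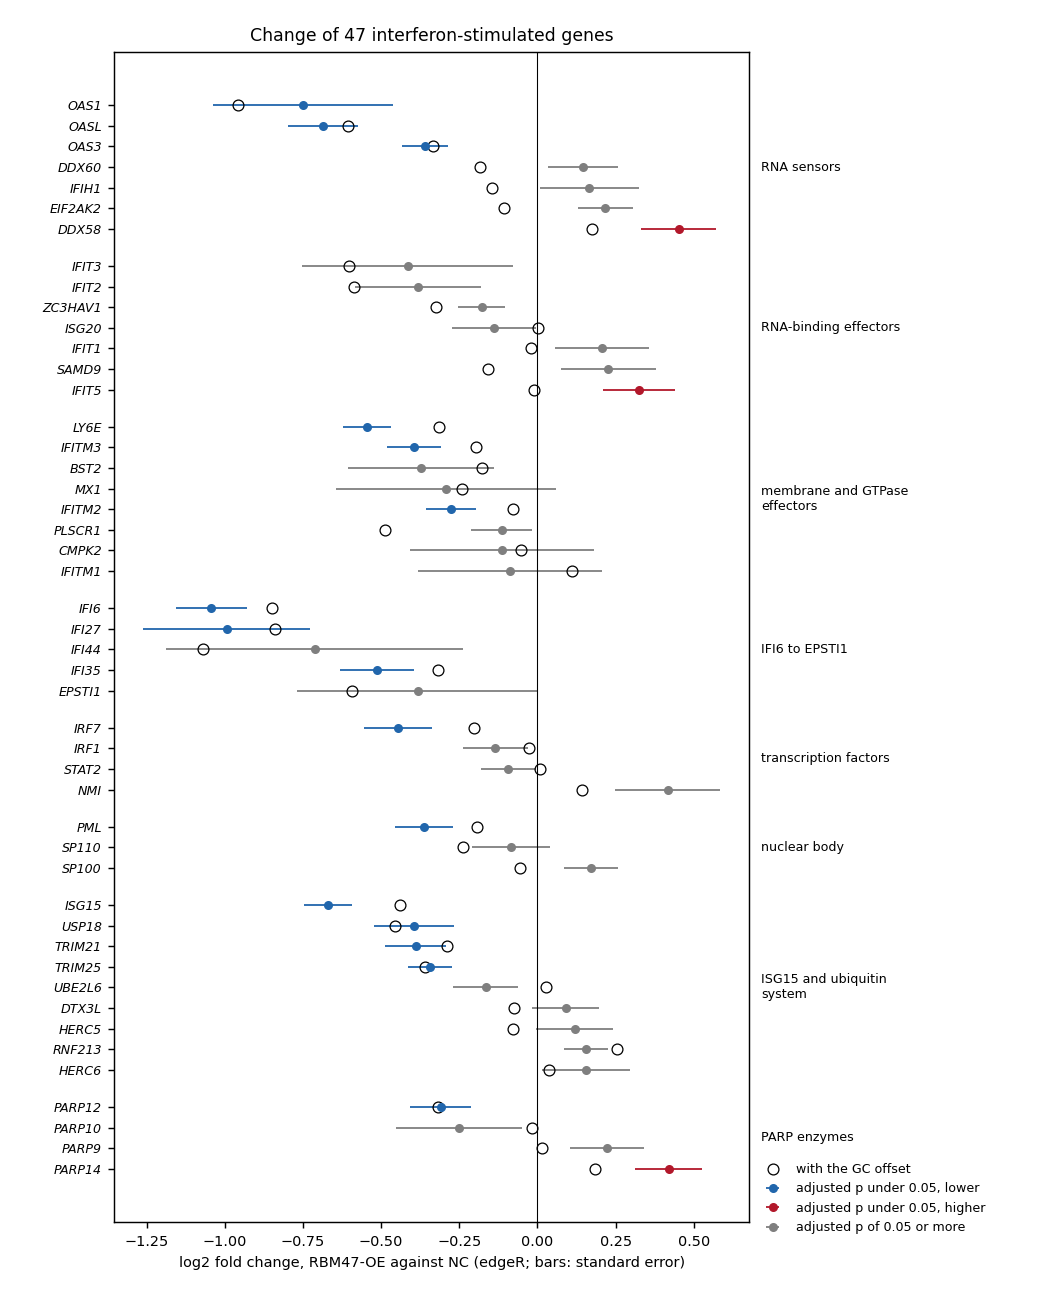
Log2 fold change of each of the 47 ISGs in RBM47-OE against NC (horizontal axis, edgeR, bars are the standard error), by function class. Filled points are coloured by the call at an adjusted p under 0.05 (blue lower, 16 genes; red higher, 3 genes; grey not called, 28 genes) and open circles give the same gene with the GC offset. IFI6 lay farthest to the left, at -1.04, and DDX58 farthest to the right, at 0.45.

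Among the 7 RNA sensors and their partners, the OAS genes were lower and the helicases were not. OAS1, OAS3 and OASL were called lower, DDX58 was called higher, and IFIH1, DDX60 and EIF2AK2 were not called. OAS1 and OAS3 make 2-5A, the messenger that switches on RNase L when double-stranded RNA is present, and OASL is a relative without that activity that binds DDX58. OASL was at 14.6, 17.9 and 18.9 CPM in NC replicates 1, 2 and 3 and at 11.2, 10.1 and 10.7 CPM in RBM47-OE replicates 1, 2 and 3, so the groups did not overlap (log2 fold change -0.69, standard error 0.11, adjusted p = 1.0e-04). OAS3, by length the highest of the OAS genes with an NC mean of 4.16 FPKM (fragments scaled to gene length and library size), was at 82.2, 91.6 and 87.4 CPM in NC and 65.9, 67.2 and 70.6 CPM in RBM47-OE for replicates 1, 2 and 3 (log2 fold change -0.36, standard error 0.072, adjusted p = 0.00054). Its 6 libraries were also separated.

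OAS1 was weakly expressed and its call was the least stable. It was at 1.03, 1.82 and 2.26 CPM in NC and 1.09, 1.03 and 0.931 CPM in RBM47-OE, with NC replicate 1 inside the RBM47-OE range (log2 fold change -0.75, standard error 0.29, adjusted p = 0.044). The call was lost with each library left out except NC replicate 1. The log2 fold change was -0.70 without NC replicate 2, -0.51 without NC replicate 3, and -0.80, -0.76 and -0.69 without RBM47-OE replicates 1, 2 and 3. OAS1 and OAS3 are neighbours on the plus strand of chromosome 12 (GRCh38), at 112905856-112933219 and 112938051-112976460. OAS2 had 5 counts at most in any library.

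DDX58 encodes RIG-I, which recognizes the 5' triphosphate ends of viral RNA. It was at 9.86, 10.8 and 12.1 CPM in NC replicates 1, 2 and 3 and at 12.5, 15.5 and 16.9 CPM in RBM47-OE replicates 1, 2 and 3, with no overlap (log2 fold change 0.45, standard error 0.12, adjusted p = 0.0047). RBM47-OE replicate 1 was nearest to NC. With an offset that removes each library's trend with exonic GC content (the GC offset), the log2 fold change was 0.17 and no longer passed. An unnamed gene on the same strand, ENSG00000288684, shares 4471 exonic bases with DDX58 and was at 57 to 70 counts per library, and how the counting shared such reads is not stated in the sources used here. IFIH1, which encodes the long-RNA sensor MDA5, was at 5.48, 6.77 and 6.67 CPM in NC and 5.36, 8.87 and 7.07 CPM in RBM47-OE and overlapped (log2 fold change 0.17, adjusted p = 0.44). EIF2AK2, the kinase PKR that stops translation when it binds double-stranded RNA, was at 70.0, 77.0 and 75.9 CPM in NC and 71.4, 92.9 and 95.0 CPM in RBM47-OE (log2 fold change 0.22, adjusted p = 0.054). RBM47-OE replicates 2 and 3 lay above every NC library for both genes, whereas replicate 1 was within the NC range for EIF2AK2 and just under it for IFIH1. DDX60, a helicase of the same group, had a log2 fold change of 0.14 (adjusted p = 0.33). Without RBM47-OE replicate 1, EIF2AK2 passed as higher at 0.34. The log2 fold changes of IFIH1, DDX60 and EIF2AK2 turned to -0.14, -0.18 and -0.11 with the GC offset.

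Of the 7 effectors that act on RNA, 0 were called lower in edgeR or DESeq2, 1 was lower at an unadjusted p under 0.05 (ZC3HAV1), and IFIT5 was called higher. IFIT1 and IFIT5 bind viral RNA by its 5' end, and the 4 IFIT genes tested lie close together on chromosome 10. IFIT5 was at 15.2, 14.98 and 14.1 CPM in NC and 14.8, 20.8 and 19.9 CPM in RBM47-OE for replicates 1, 2 and 3 (log2 fold change 0.32, standard error 0.11, adjusted p = 0.028). RBM47-OE replicate 1 fell within the NC range, and the other RBM47-OE libraries were above it. The call was lost with each library left out except RBM47-OE replicate 1, and the log2 fold change was 0.34, 0.34 and 0.29 without NC replicates 1, 2 and 3, and 0.23 and 0.27 without RBM47-OE replicates 2 and 3. With the GC offset it was -0.01.

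The other IFIT genes did not pass here. IFIT1, which blocks translation of RNA without a methylated cap, was at 4.64, 6.22 and 5.84 CPM in NC and 6.03, 5.82 and 7.55 CPM in RBM47-OE (log2 fold change 0.21, adjusted p = 0.3). IFIT2 was at 3.16, 2.55 and 3.41 CPM in NC and 2.55, 1.9 and 2.52 CPM in RBM47-OE (log2 fold change -0.38, adjusted p = 0.14). With the GC offset IFIT2 was at -0.59 (adjusted p = 0.053 in edgeR), and with the replicate block added to that offset it passed as lower, at -0.60 (adjusted p = 0.038). IFIT3, its partner, was at 0.609, 1.62 and 1.74 CPM in NC and 0.667, 1.12 and 1.24 CPM in RBM47-OE (log2 fold change -0.41, adjusted p = 0.36), and here NC replicate 1 was below every RBM47-OE library. IFIT2 and IFIT3 thus had estimates below 0 and IFIT1 and IFIT5 above 0, with standard errors of 0.20 and 0.34 for the first pair.

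ZC3HAV1, the antiviral protein ZAP that binds CpG-rich viral RNA, was at 61.5, 61.9 and 60.5 CPM in NC and 50.9, 52.8 and 58.9 CPM in RBM47-OE (log2 fold change -0.18, adjusted p = 0.068). All RBM47-OE libraries were below NC. It passed as lower with the GC offset (-0.33) and without RBM47-OE replicate 3 (-0.24). ISG20, an exonuclease, and SAMD9, a translation inhibitor, had log2 fold changes of -0.14 and 0.23 and overlapping groups. Without RBM47-OE replicate 1, SAMD9 passed as higher at 0.44. SAMD9L had 3 counts at most in any library.

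All 8 genes in the class of membrane and GTPase effectors, which also holds the nucleotide kinase CMPK2, had log2 fold changes below 0. LY6E, IFITM3 and IFITM2 were called lower, and the other 5 were not called. The class median was -0.28, and -0.19 with the GC offset, under which IFITM1 turned to 0.11. The median exonic GC content of the class was 57.55%. All genes tested at 52% GC or more had a median log2 fold change of -0.20. LY6E, a lipid-anchored surface protein that limits the entry of coronaviruses, was at 226, 231 and 226 CPM in NC replicates 1, 2 and 3 and at 176, 147 and 145 CPM in RBM47-OE replicates 1, 2 and 3 (log2 fold change -0.54, standard error 0.076, adjusted p = 3.2e-05). The highest RBM47-OE library was well below the lowest NC library. IFITM2 and IFITM3 hinder the fusion of viruses with endosomes. IFITM3 was at 338, 396 and 399 CPM in NC and 331, 257 and 275 CPM in RBM47-OE for replicates 1, 2 and 3 (log2 fold change -0.39, standard error 0.086, adjusted p = 0.001), and IFITM2 was at 75.2, 78.7 and 78.4 CPM in NC and 72.2, 57.2 and 62.3 CPM in RBM47-OE (log2 fold change -0.28, standard error 0.08, adjusted p = 0.0087). In both, RBM47-OE replicate 1 stood nearest to NC.

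IFITM1, which acts mainly at the cell surface, was at 1.14, 0.955 and 2.02 CPM in NC and 1.39, 1.37 and 1.07 CPM in RBM47-OE and overlapped (log2 fold change -0.09, adjusted p = 0.85). The 3 IFITM genes are related genes within a short stretch of chromosome 11. Reads on sequence that they share could be lost or split where only uniquely mapped reads are counted, which was not tested. With the GC offset neither IFITM3 (-0.20) nor IFITM2 (-0.08) passed, and LY6E did (-0.32). IFITM2 also lost its call when NC replicate 2 (-0.27) or RBM47-OE replicate 2 (-0.20) was left out.

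BST2, or tetherin, which holds budding virions at the cell, was at 2.7, 2.49 and 2.12 CPM in NC and 2.33, 1.28 and 2.03 CPM in RBM47-OE (log2 fold change -0.37, adjusted p = 0.23). PLSCR1, the phospholipid scramblase, was at 23.7, 25.8 and 29.3 CPM in NC and 22.1, 24.5 and 26.2 CPM in RBM47-OE (log2 fold change -0.11, adjusted p = 0.38), and passed as lower with the GC offset at -0.49. MX1, a dynamin-like GTPase, and CMPK2, a mitochondrial nucleotide kinase, stayed between 0.592 and 1.28 CPM in every library and overlapped. MX2 and RSAD2 had at most 3 and 1 counts in any library.

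The largest decreases came from the group of IFI genes and EPSTI1, in which IFI6, IFI27 and IFI35 were called lower and IFI44 and EPSTI1 were not. IFI6 and IFI27 encode small hydrophobic proteins of mitochondria or the endoplasmic reticulum, and IFI35 is a leucine zipper protein that binds NMI. IFI6 was at 28.4, 41.0 and 43.0 CPM in NC replicates 1, 2 and 3 and at 18.8, 18.5 and 17.3 CPM in RBM47-OE replicates 1, 2 and 3. The NC libraries spread from 28.4 to 43.0, and all RBM47-OE libraries were lower and close together. On average IFI6 had 37.4 ± 7.93 CPM in NC and 18.2 ± 0.788 CPM in RBM47-OE (SD, n = 3 each), a fitted fold of 0.485 (edgeR, log2 fold change -1.04, standard error 0.11, adjusted p = 4.1e-06).

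A long non-coding gene on the same strand, LINC02574, shares 216 exonic bases with IFI6 and had 237, 437 and 410 counts in NC and 139, 184 and 151 in RBM47-OE. IFI27 was at 1.86, 1.65 and 2.09 CPM in NC and 1.12, 0.872 and 0.793 CPM in RBM47-OE (log2 fold change -0.99, standard error 0.27, adjusted p = 0.0051), a fitted fold of 0.502 at a far lower level. IFI35 was at 12.1, 13.5 and 12.4 CPM in NC and 10.1, 7.94 and 8.55 CPM in RBM47-OE (log2 fold change -0.51, standard error 0.12, adjusted p = 0.0017). None of the 3 genes overlapped between groups, and all stayed lower with the GC offset, at -0.85, -0.84 and -0.32. IFI44 and EPSTI1 had log2 fold changes of -0.71 and -0.38 with standard errors of 0.48 and 0.39 at under 1 CPM. IFI44L and XAF1 had at most 1 and 3 counts in any library.

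**Figure D2:**
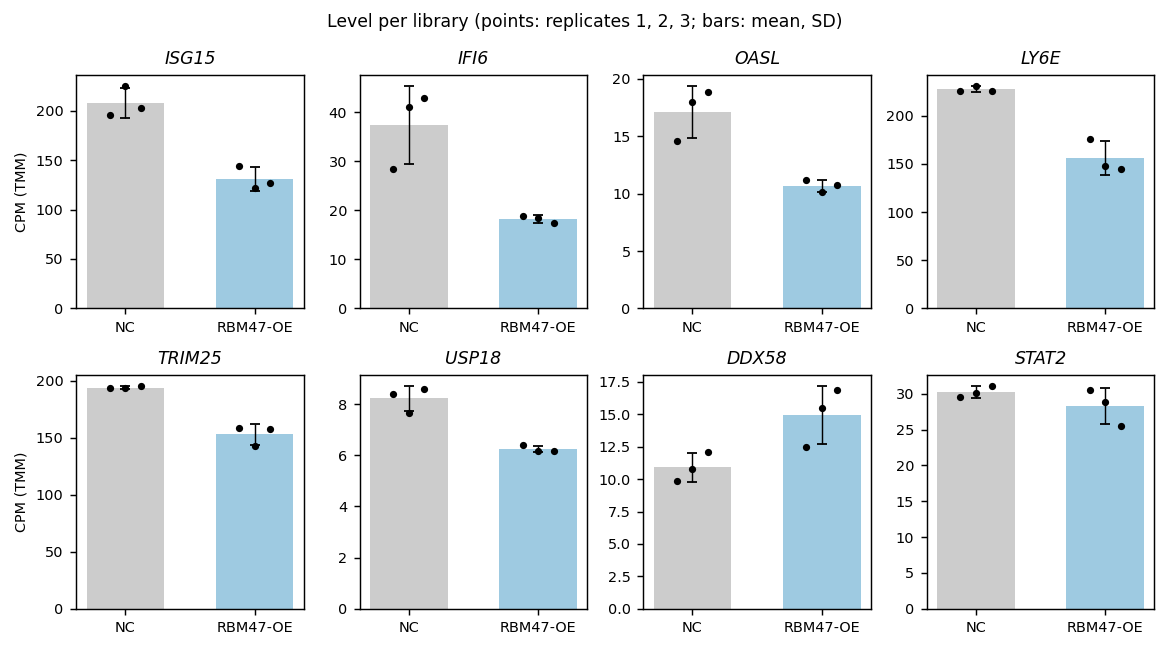
CPM of 8 ISGs in each library (points, replicates 1, 2 and 3 from left to right), with the group mean (bar) and SD (error bar). ISG15, IFI6, OASL, LY6E, TRIM25 and USP18 had every RBM47-OE point below every NC point, DDX58 had every one above, and STAT2 overlapped.

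Of the 4 factors of transcription that could be tested, IRF7 was called lower. IRF7 drives type I interferon genes after infection and is itself an ISG. It was at 17.5, 19.7 and 20.1 CPM in NC and 13.4, 16.1 and 12.6 CPM in RBM47-OE for replicates 1, 2 and 3, without overlap (log2 fold change -0.45, standard error 0.11, adjusted p = 0.0023), and with the GC offset it was at -0.20 and did not pass. Its exons had the highest GC content of all 47 genes, 67.2%. STAT2, the ISGF3 subunit that carries the activation domain, was at 29.5, 30.1 and 31.1 CPM in NC and 30.5, 28.9 and 25.6 CPM in RBM47-OE (log2 fold change -0.09, standard error 0.088, adjusted p = 0.44). IRF1, a factor induced early by interferon, was at 21.9, 22.9 and 21.7 CPM in NC and 20.1, 23.4 and 17.0 CPM in RBM47-OE (log2 fold change -0.13, adjusted p = 0.34). Both overlapped between the groups. Opposite-strand genes, IRF1-AS1 among them, share up to 2805 exonic bases with IRF1, and whether counting used strand is not given in the sources used here.

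NMI, the partner of IFI35, was at 4.53, 3.93 and 5.35 CPM in NC and 4.7, 6.32 and 7.41 CPM in RBM47-OE (log2 fold change 0.42, standard error 0.17, adjusted p = 0.054). It passed as higher without RBM47-OE replicate 1 (0.59) and without NC replicate 3 (0.54). The estimates for NMI and IFI35 had opposite signs. IRF9, the DNA-binding subunit of ISGF3, was counted at 6, 5 and 8 reads in NC and 13, 7 and 6 in RBM47-OE, and was not tested. A same-strand gene, ENSG00000259529, shares 1544 exonic bases with IRF9 and had 455, 737 and 589 counts in NC and 560, 581 and 410 in RBM47-OE, so the low count of IRF9 cannot be read as a low level of its RNA.

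Of the nuclear body genes, PML was called lower, and SP100 and SP110 were not. PML builds the nuclear bodies that carry its name, and SP100 resides in them. PML was at 38.5, 40.8 and 42.1 CPM in NC and 36.1, 30.9 and 27.3 CPM in RBM47-OE for replicates 1, 2 and 3 (log2 fold change -0.36, standard error 0.092, adjusted p = 0.0034), with no overlap. The GC offset gave -0.19, which did not pass. SP100 was at 37.9, 34.5 and 39.6 CPM in NC and 37.9, 42.8 and 45.5 CPM in RBM47-OE (log2 fold change 0.17, adjusted p = 0.13) and passed as higher without RBM47-OE replicate 1, at 0.25. SP110 had a log2 fold change of -0.09 (adjusted p = 0.63).

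In the ISG15 and ubiquitin group of 9 genes, ISG15, USP18, TRIM21 and TRIM25 were called lower and 0 were called higher in edgeR. RNF213 was the 1 gene higher at an unadjusted p under 0.05, and DESeq2 on all genes called it. ISG15 is the ubiquitin-like protein that is joined to other proteins, and by length it was the most abundant ISG of all, with a mean of 206 FPKM in NC. It was at 195, 225 and 203 CPM in NC replicates 1, 2 and 3 and at 144, 121 and 126 CPM in RBM47-OE replicates 1, 2 and 3. On average it had 208 ± 15.5 CPM in NC and 131 ± 12.1 CPM in RBM47-OE (SD, n = 3 each), a fitted fold of 0.629 (edgeR, log2 fold change -0.67, standard error 0.077, adjusted p = 7.1e-06). Its groups were apart, and RBM47-OE replicate 1 was again the closest to NC.

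In the same group, UBE2L6, HERC5 and HERC6 did not pass. UBE2L6, the conjugating enzyme for ISG15, was at 20.6, 19.9 and 22.1 CPM in NC and 21.4, 17.7 and 16.6 CPM in RBM47-OE (log2 fold change -0.17, adjusted p = 0.22). HERC5, the main ISG15 ligase, was at 14.2, 11.7 and 13.9 CPM in NC and 12.2, 13.5 and 17.6 CPM in RBM47-OE (log2 fold change 0.12, adjusted p = 0.49), and HERC6 was at 7.27, 9.37 and 9.59 CPM in NC and 7.64, 10.6 and 11.1 CPM in RBM47-OE (log2 fold change 0.16, adjusted p = 0.42). All 3 overlapped. Without RBM47-OE replicate 1, UBE2L6 passed as lower at -0.27.

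USP18, the protease that removes ISG15 and also damps receptor signalling, was at 8.41, 7.67 and 8.59 CPM in NC and 6.39, 6.16 and 6.17 CPM in RBM47-OE for replicates 1, 2 and 3 (log2 fold change -0.39, standard error 0.13, adjusted p = 0.017). Its groups did not overlap, but the call was lost without NC replicate 1 (-0.38) or NC replicate 3 (-0.36). Its near copy USP41 averaged 0.17 counts. TRIM25, the ubiquitin ligase that acts on RIG-I, was at 193, 193 and 195 CPM in NC and 158, 142 and 158 CPM in RBM47-OE (log2 fold change -0.34, standard error 0.07, adjusted p = 0.00059). TRIM21, a ligase that is also an antibody receptor inside the cell, was at 21.0, 22.1 and 21.1 CPM in NC and 17.8, 14.7 and 16.6 CPM in RBM47-OE (log2 fold change -0.39, standard error 0.099, adjusted p = 0.0033). Both were separated and stayed lower with the GC offset, at -0.36 and -0.29.

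RNF213, a very large ubiquitin ligase, was at 115, 114 and 116 CPM in NC and 121, 134 and 129.6 CPM in RBM47-OE (log2 fold change 0.15, adjusted p = 0.085). Every RBM47-OE library was above NC, and it passed as higher with the GC offset (0.25) and without RBM47-OE replicate 1 (0.20). It was the 1 ISG called higher with that offset. DTX3L, the ligase partner of PARP9, had a log2 fold change of 0.09 (adjusted p = 0.55).

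The 4 PARP enzymes, which attach ADP-ribose to proteins, were split. PARP12 was lower at 23.3, 25.6 and 25.8 CPM in NC and 18.8, 18.8 and 22.8 CPM in RBM47-OE for replicates 1, 2 and 3 (log2 fold change -0.31, standard error 0.098, adjusted p = 0.015), and PARP14 was higher at 14.99, 14.1 and 15.9 CPM in NC and 17.0, 20.9 and 22.4 CPM in RBM47-OE (log2 fold change 0.42, standard error 0.11, adjusted p = 0.0038). Neither overlapped between groups. PARP12 stayed lower with the GC offset (-0.32) but lost its call without NC replicate 2 (-0.29), NC replicate 3 (-0.28) or RBM47-OE replicate 2 (-0.26). PARP14 was not called with the GC offset (0.18). PARP9, which lies beside DTX3L and PARP14 on chromosome 3, had a log2 fold change of 0.22 (adjusted p = 0.15), and 0.31 as a called gene without RBM47-OE replicate 1. PARP10 had -0.25 (adjusted p = 0.35). On chromosome 3 (GRCh38) PARP9 spans 122527924-122564577, DTX3L 122564338-122575203 and PARP14 122680839-122730840.

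**Figure D3:**
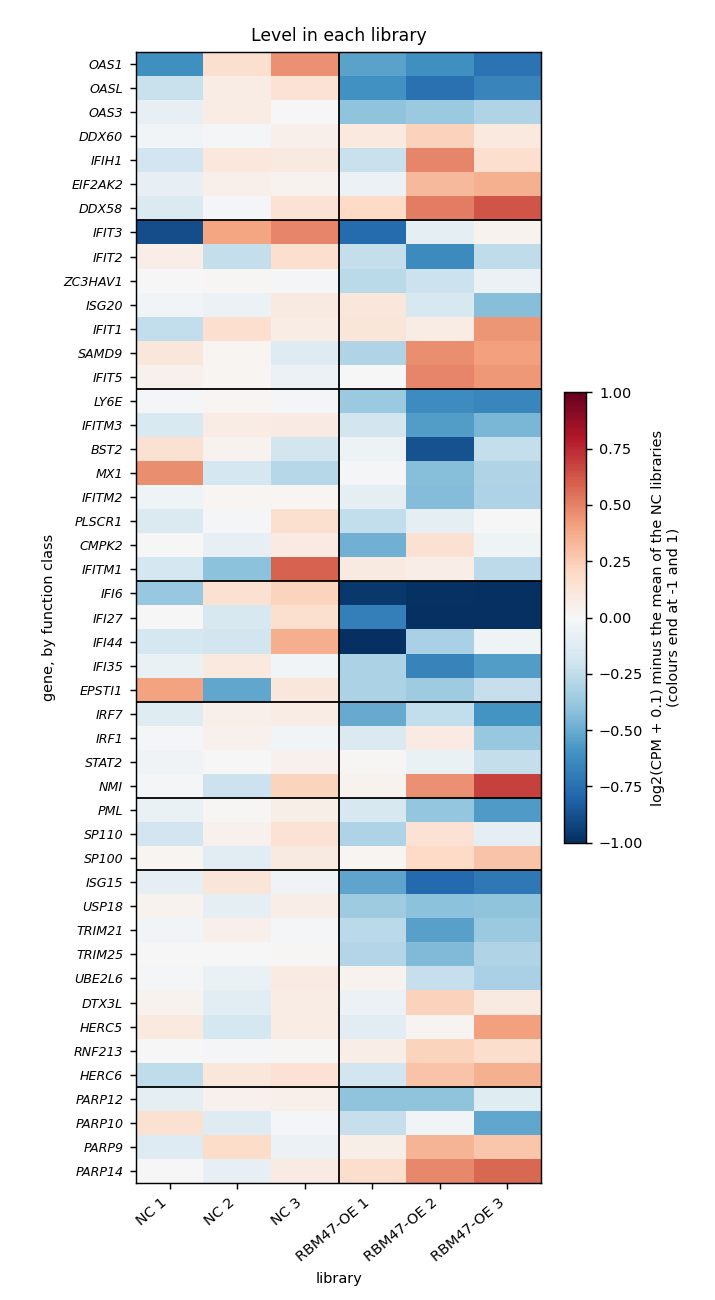
Level of each ISG (rows, by function class) in each library (columns), as log2(CPM + 0.1) minus the mean of the NC libraries, blue below and red above. IFI6, IFI27, ISG15, LY6E and OASL were blue in every RBM47-OE column, and RBM47-OE replicate 1 was paler than replicates 2 and 3 for DDX58, IFITM3 and PARP14.

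Basal level was read as the mean FPKM of the NC libraries, a scale that allows genes to be compared by length. All 6 ISGs at 10 FPKM or more were called lower: ISG15 at 206, IFITM3 at 115, LY6E at 74.3, IFITM2 at 44.3, IFI6 at 34.5 and TRIM25 at 13.5. Their median log2 fold change was -0.47. Of all 3628 tested genes at that level, 44.7% were lower and 14.4% higher, with a median of -0.17. Of the 29 genes from 1 to under 10 FPKM, 8 were lower (27.6%) and 2 higher (6.9%), with a median of -0.09, where 1014 of all 7784 genes tested at that level were lower and 27.3% were higher. Of the 12 genes under 1 FPKM, 2 were lower (OAS1 and IFI27) and 1 higher (DDX58), with a median of -0.34, where 2.13% of all genes at that level were lower and 9.33% higher. IFI27, at 0.387 FPKM, had a log2 fold change of -0.99, beside -1.04 for IFI6 at 34.5 FPKM.

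Across the 47 genes Spearman's rho between basal FPKM and log2 fold change was -0.18, and -0.05 with the GC offset. Genes are not independent replicates, and these points share the same 6 libraries, so no p is given. Standard errors were larger at low level, from 0.11 for DDX60 to 0.48 for IFI44 under 1 FPKM, so a decrease of the size seen in TRIM25 was not detectable at this depth for genes such as IFI44, MX1 or EPSTI1. Genes of higher basal level also had higher exonic GC content (rho 0.41).

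**Figure D4:**
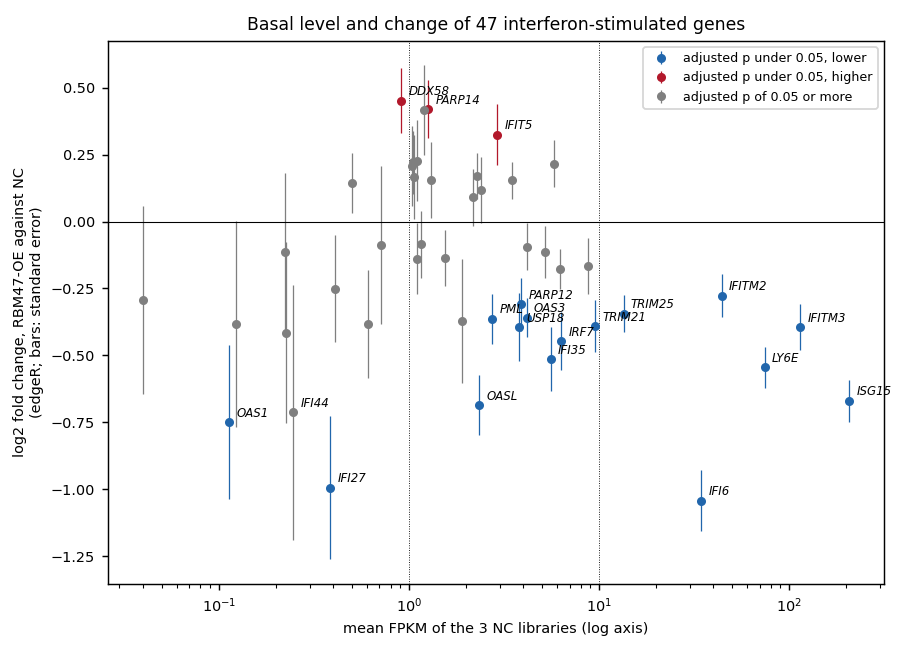
Mean FPKM of the NC libraries (horizontal log axis) against the log2 fold change in RBM47-OE (vertical axis, bars are the standard error) for the 47 ISGs, with dotted lines at 1 and 10 FPKM. Every gene to the right of 10 FPKM was called lower (blue), and called and uncalled genes mixed below it.

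Exonic GC content moved with these changes. The median was 54.2% for the ISGs called lower, 41.0% for those called higher and 43.6% for those not called, beside 57.1% for all lower genes, 40.3% for all higher genes and 48.98% for all genes tested. Of the 14 ISGs at 52% GC or more, 9 were lower and 0 higher in edgeR's test, and all 14 had log2 fold changes below 0. At an unadjusted p under 0.05 the counts were also 9 and 0. Of all genes tested at 52% GC or more, 33.2% were lower and 0.751% higher. Of the 21 at under 45%, 1 ISG was lower and 3 were higher, where 1.41% of all genes in that range were lower and 47.3% higher. Spearman's rho between GC content and log2 fold change was -0.54 across the 47 ISGs and -0.63 across all genes with a GC value.

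The GC offset removes any change that tracks GC content, of whatever kind. With it, 14 ISGs were lower (29.8%), where 8.46% of all genes were lower, and 1 was higher (2.13%), where 6.21% were. Of the 16 lower genes, 12 stayed lower: IFI27, IFI35, IFI6, ISG15, LY6E, OAS1, OAS3, OASL, PARP12, TRIM21, TRIM25 and USP18. IFITM2, IFITM3, IRF7 and PML no longer passed, PLSCR1 and ZC3HAV1 were added as lower, and none of DDX58, IFIT5 and PARP14 passed. The median over the 47 genes was -0.18 as without the offset. At 10 FPKM or more, 4 of the 6 genes stayed lower, with a median of -0.34, where 22.7% of all genes at that level were lower.

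**Figure D5:**
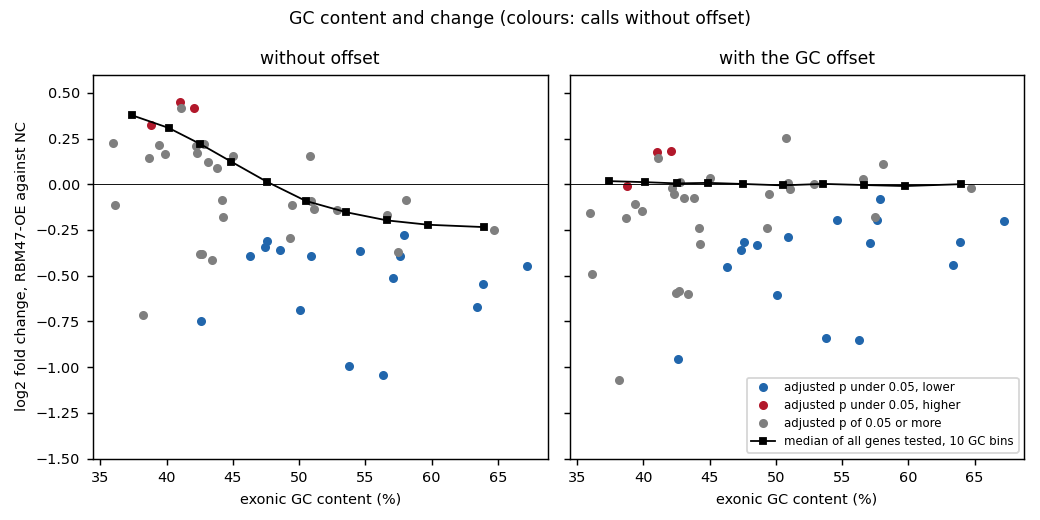
Exonic GC content (horizontal axis, %) against log2 fold change for the 47 ISGs without (left) and with (right) the GC offset, coloured by the call without it, with the median of all genes tested in 10 bins of GC content (black squares). The black line fell from 0.38 in the lowest bin to -0.23 in the highest on the left and lay near 0 on the right, and most blue points lay below it in both panels.

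The decrease was seen in each RBM47-OE library. Each of the 16 genes called lower was below the NC mean in all 3 libraries, with medians of -0.39, -0.55 and -0.56 on the log2 scale in RBM47-OE replicates 1, 2 and 3. These genes were chosen on the same libraries, so this is a description. Over all 47 ISGs the medians were -0.22, -0.16 and -0.24, beside 0.01, 0.01 and -0.02 over all genes. The ISGs also shifted between NC libraries. Against the mean of the other NC libraries, their medians were -0.04, 0.02 and 0.11 in NC replicates 1, 2 and 3. Over all genes these medians were 0.002, 0.005 and -0.0008. NC replicate 1 was the lowest NC library for 25 of the 47 ISGs (53.2%), against 33.8% of all genes, and its part in the result was not tested. Without NC replicate 1, 15 ISGs were lower and 2 higher. Without RBM47-OE replicate 1, 16 were lower and 9 higher, the 6 added as higher being EIF2AK2, SAMD9, NMI, SP100, RNF213 and PARP9. With any 1 library left out, the count of lower ISGs was between 13 and 16.

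Genes upstream of the ISGs that passed the test in the receptor group were higher. Among 12 tested receptors, kinases and STAT factors, 0 were lower and 4 higher (33.3%) in edgeR's test (1 lower and 4 higher at an unadjusted p under 0.05). Of all genes tested, 16.9% were lower and 19.1% higher. With the GC offset 0 of the 12 were lower and 2 higher (16.7%), where 8.46% and 6.21% of all genes were. IFNGR1, a chain of the interferon gamma receptor, was at 20.2, 19.1 and 20.5 CPM in NC and 25.0, 32.6 and 31.2 CPM in RBM47-OE (log2 fold change 0.57, standard error 0.099, adjusted p = 0.00016). JAK1, the kinase shared by all interferon receptors, was at 64.5, 63.0 and 67.3 CPM in NC and 80.4, 88.1 and 89.9 CPM in RBM47-OE (log2 fold change 0.41, adjusted p = 0.0002). Both were separated and passed with the GC offset (0.35 and 0.42). IFNAR1, a chain of the type I receptor, had a log2 fold change of 0.25, and of -0.01 with the GC offset. Its call was lost with any library left out except RBM47-OE replicate 1, and its log2 fold change was 0.12 to 0.34 over all libraries left out in turn. IFNAR2 and TYK2 did not pass, with log2 fold changes of 0.05 and -0.13.

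Of 13 tested genes that induce interferon, 4 were lower (30.8%) and 2 higher (15.4%), where 16.9% and 19.1% of all genes tested were. TICAM1, IKBKE, IRF3 and MYD88 were lower, at log2 fold changes of -0.43, -0.43, -0.26 and -0.35. TBK1 and TANK were higher, at 0.34 and 0.26. The call of IKBKE was lost without NC replicates 2 or 3 or RBM47-OE replicates 2 or 3 (-0.65 to -0.29 over all libraries left out in turn), that of IRF3 without NC replicate 2 (-0.28 to -0.23) and that of TANK without NC replicates 1 or 2 or RBM47-OE replicate 3 (0.15 to 0.33). TICAM1, the adaptor TRIF, also passed with the GC offset, at -0.20. IKBKE, IRF3, MYD88, TBK1 and TANK did not, at -0.24, -0.05, -0.19, -0.01 and -0.10, so the estimates of TBK1 and TANK changed sign. MAVS, the adaptor that relays RIG-I and MDA5, did not pass at 0.06, and passed as higher with the GC offset, at 0.19. With that offset 1 of the 13 was lower and 1 higher (7.69% each), where 8.46% and 6.21% of all genes were. Among 11 negative regulators, PIAS4 and IRF2BP1 were lower (18.2%) and PIAS1 was higher (9.09%), at -0.34, -0.38 and 0.41. Over all genes tested these shares were 16.9% and 19.1%. With the GC offset PIAS4 and IRF2BP1 did not pass, at -0.11 and -0.13, and PIAS1, SOCS3 and IRF2BP2 were higher, at 0.21, 0.35 and 0.27. These higher genes were 27.3% of the 11, where 6.21% of all genes were higher with the offset. Another 31 genes outside the list of 54 were taken as further ISGs, and ISG20L2, IFI27L1 and IFI27L2 among them carry names derived from a listed ISG. Whether these genes respond to interferon was not tested. Of the 31, 9 were lower (29.0%) and 3 higher (9.68%), where 16.9% and 19.1% of all genes tested were. With the GC offset 2 of the 31 were lower (6.45%), ZNFX1 (-0.31) and ISG20L2 (-0.20), and 0 higher (edgeR). With that offset 8.46% of all genes were lower and 6.21% higher. Among the 31, BATF2 had the lowest value without the offset, at -0.73, and met the thresholds of the study. The other lower ones were TRIM14 and TRIM26 (-0.32 each), OGFR (-0.34), LGALS3BP (-0.37), APOBEC3B (-0.32) and MOV10 (-0.21). None of these passed with the GC offset. TRIM14 lost its call without NC replicate 2, and APOBEC3B without NC replicates 2 or 3 or RBM47-OE replicate 2. MOV10 lost its call with any library left out except RBM47-OE replicate 1. The higher ones were SAMHD1, TDRD7 and PNPT1, at 0.31, 0.39 and 0.38, and SAMHD1 lost its call without NC replicates 1 or 3 or RBM47-OE replicate 2 (0.26 to 0.39).

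Over all 67 tested pathway genes outside the list, 15 were lower (22.4%) and 10 higher (14.9%), where 16.9% and 19.1% of all genes tested were. Their median log2 fold change was -0.06. With the GC offset, 3 were lower (4.48%) and 6 higher (8.96%), where 8.46% and 6.21% of all genes were. The ligands with a row in the count table gave almost no reads. IFNE, IFNL1, IFNL2 and IFNL3 averaged 1.0, 2.17, 2.0 and 0.67 counts per library. The other interferon genes on the list, IFNB1 and IFNG among them, had no row under their symbols. CGAS, the DNA sensor, averaged 0.67 counts.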

How the data were processed

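RNA-seq of HCT116 cells was analysed for 3 NC and 3 RBM47-OE libraries, grouped by the treatment in the labels. After trimming, the authors mapped reads to GRCh38 by HISAT2 and deposited counts of uniquely mapped reads per gene, without normalization. The authors also deposited FPKM values, divided by gene length and mapped fragments. The counting tool, the annotation release and the use of strand are not given in the sources used here. The libraries held 26792409 to 35477983 counts, and 3 counts corresponded to 0.0868 to 0.114 CPM.

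Counts were tested with edgeR 4.0.16 in R 4.3.3 (filterByExpr with a minimum count of 10 and a minimum total of 15, TMM, quasi-likelihood test, condition as the only term), with Benjamini-Hochberg adjustment over 16260 genes. A call was an adjusted p under 0.05. Standard errors were the absolute log2 fold change over the root of F. Exonic GC content and positions came from GENCODE 44, matched by identifier for 28416 of 28491 genes, 28401 of them on the same chromosome. Offsets for GC content and length were fitted per library by loess (span 0.3). DESeq2 1.42.0, limma 3.58.1 on log2(FPKM + 1) and log2(FPKM + 0.1), other scalings and filters, the replicate number as a block and each library left out were alternatives. The fits were tested on simulated data.

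Every ISG with a mean count of at least 10 was accounted for. Values per library were given for called genes and for those on which a function class turned, and pathway genes were named when called or, for ligands, when under 10 counts. Of the genes listed, 1 pathway gene and 1 marker are not reported here by name. The ISGs, their classes and the other lists were chosen with earlier results of these data known. Promoter windows came from RefSeq (GRCh38.p14).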

Additional observations from a re-analysis of the deposited data

How the results depend on the processing

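Of the 19 calls, OASL, LY6E, IFI6, IFI27, IFI35, ISG15, TRIM21 and TRIM25 were made under all 19 alternatives. The count of lower ISGs (16) fell to 9 with limma on log2(FPKM + 1) without a filter, which called 0 higher, and was 12 to 16 under the other alternatives. The count of higher ISGs (3) was 6 with library totals, which shifted the median of all genes to 0.06, 5 without a filter and 1 with the GC offset with or without the replicate block. With 1 library left out it was 2 to 9, the highest without RBM47-OE replicate 1, as was the 0 to 1 higher at the thresholds of the study. Lower ISGs at those thresholds (4) were 2 with limma on log2(FPKM + 1), filtered or not. The median log2 fold change (-0.18) was -0.12 with library totals, -0.25 with the length offset, -0.043 with limma on log2(FPKM + 1), filtered or not, -0.10 on log2(FPKM + 0.1), and -0.24 to -0.17 with 1 library left out. Apart from the pseudocounts, which shrink the change of low genes, the cause was not tested.

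With the GC offset, and in parentheses with the replicate block added, the log2 fold change changed sign for IFIH1 to -0.14 (-0.15), DDX60 -0.18 (-0.18), EIF2AK2 -0.11 (-0.11), IFIT1 -0.022 (-0.018), IFIT5 -0.012 (-0.013), SAMD9 -0.16 (-0.17), IFITM1 0.11 (0.15), STAT2 0.0087 (0.0064), SP100 -0.055 (-0.055), UBE2L6 0.027 (0.023), HERC5 -0.078 (-0.083) and DTX3L -0.074 (-0.074), and for ISG20 to 0.0026 without the block. IFIT5 was the 1 called gene among them. The length offset gave -0.0074 for DDX60, 0.024 for IFITM1 and -0.038 for RNF213, and limma on log2(FPKM + 0.1) gave 0.019 for IFITM1. With 1 library left out the sign also varied for IFIH1 (-0.030 to 0.34), IFITM1 (-0.31 to 0.30), CMPK2 (-0.28 to 0.070), SP110 (-0.21 to 0.029) and HERC5 (-0.046 to 0.23).

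Deviations from the group means of same-numbered libraries correlated at -0.06, -0.01 and -0.02 across genes, and those of other pairs at -0.02 to 0.04. Values near 0 show no strong shared shift, but they cannot tell whether same-numbered samples were prepared together. The replicate block gave 16 lower and 4 higher ISGs, NMI being added. OAS1, IFI27, IFIT3, IFITM1, CMPK2, MX1, EPSTI1 and IFI44, at means of 14.2 to 42.3 counts, had standard errors of 0.27 to 0.48, so small changes of these genes were not detectable at this depth.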
